A study of Mus musculus with 6 samples.

Results

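A group of 10 genes for surface molecules through which monocytes restrain or assist T cells were followed in RNA sequencing of monocytes sorted from mouse B16F10 tumours: Cd274, Pdcd1lg2, Cd80, Cd86, Cd40, Cd276, Vsir, Havcr2, Icosl and Pvr. They were chosen by name, and all 10 were found among the 56980 genes of the count table. The 3 LNP-Gsdme libraries came from tumours that had received lipid nanoparticles (LNP) with mRNA for gasdermin E, a pore-forming protein of lytic cell death, and 3 LNP-GFP libraries from tumours given nanoparticles with mRNA for green fluorescent protein. B16F10 is a transplantable mouse melanoma line, here a line carrying mCherry, and cells of both groups were sorted as CD11b+ Ly6Chi Ly6G- monocytes with a WT genotype label. Mouse strain, age, dose and time after delivery are not stated in the labels. Nor is it stated whether the 3 libraries of a group are from different mice, and the p-values therefore reflect the spread among libraries, possibly technical.

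T cells need a second signal besides the antigen. CD80 and CD86 on an antigen-presenting cell give it through CD28 and are also bound by the inhibitory receptor CTLA-4, and ICOS ligand gives a related signal through ICOS. PD-L1 and PD-L2 bind PD-1 and dampen T cell activity, and in tumours myeloid cells are a well known source of PD-L1, which interferons induce. CD40 receives help from activated T cells and licenses the cell that carries it.

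Total counts were 15991826 to 18751784 in LNP-Gsdme libraries and 20233559 to 22932095 in LNP-GFP libraries. All 10 genes passed the low-count filter, which kept 16010 genes. The label was checked against cell type markers, given as summed CPM (counts scaled to library size) over the 9 or 10 tested genes of each list. Monocyte markers summed to 8493, 9156 and 7057 CPM in LNP-Gsdme 1 to 3, against 8060, 7674 and 7094 CPM in LNP-GFP 1 to 3, and the groups overlapped. Within this list 4 genes lay higher in LNP-Gsdme without overlap and 3 lower, beside 19.6% and 18.2% of all tested genes. The sum therefore does not show that the sorted monocytes were alike. Among the 4 higher genes was Ly6c2, a gene of the Ly6C antigen used in the sort. It had 1374, 1856 and 1400 CPM in LNP-Gsdme 1 to 3, against 257, 267 and 211 CPM in LNP-GFP 1 to 3. Its log2 fold change was 2.66 (edgeR adjusted p = 0.00219). What this difference meant for the 10 genes was not tested. Markers of other cells were present too. Macrophage markers summed to 4101, 4344 and 4012 CPM in LNP-Gsdme and to 6011, 3971 and 5262 CPM in LNP-GFP, with overlap. Fibroblast markers summed to 3099, 2308 and 5774 CPM in LNP-Gsdme and to 9229, 10207 and 9695 CPM in LNP-GFP, with no overlap. Mature dendritic cell markers summed to 146, 180 and 157 CPM in LNP-Gsdme and to 198, 287 and 267 CPM in LNP-GFP, again with no overlap. Melanoma markers summed to 423, 475 and 1051 CPM in LNP-Gsdme and to 670, 2577 and 1650 CPM in LNP-GFP. Of these sums, 1 gene, Gpnmb, gave 290, 293 and 271 CPM in LNP-Gsdme and 319, 690 and 517 CPM in LNP-GFP. T cell markers summed to 665, 651 and 506 CPM in LNP-Gsdme and to 610, 215 and 408 CPM in LNP-GFP, and NK cell markers to 732, 685 and 555 CPM in LNP-Gsdme and to 561, 147 and 345 CPM in LNP-GFP. No marker of these lists was at 0 in all libraries. In bulk samples of this kind, fewer cells of a type and less RNA per cell cannot be told apart.

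**Figure D1:**
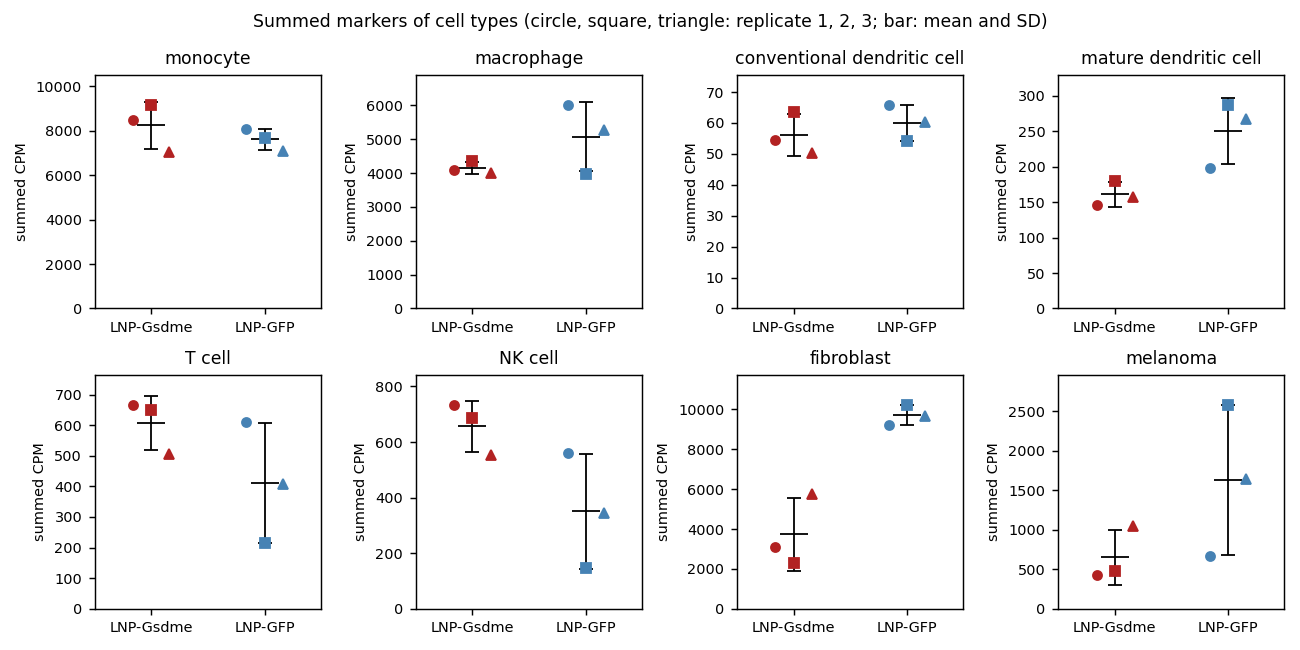
Summed CPM of marker genes for 8 cell types in each library, with LNP-Gsdme left of LNP-GFP; points are libraries, bars the mean and SD of 3. Fibroblast markers lay at 2308 to 5774 CPM in LNP-Gsdme and at 9229 to 10207 CPM in LNP-GFP, while the monocyte sums overlapped.

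Of the 10 genes, Cd274 alone changed past the threshold: it rose 1.28-fold in LNP-Gsdme. No gene fell by edgeR, by DESeq2 or at an unadjusted p below 0.05. Unadjusted edgeR p-values were below 0.05 for 5051 of the 16010 tested genes, both directions together. A single riser among 10 is close to the background, since 6.3% of all tested genes rose, 5.32% fell and 11.6% passed in either direction (edgeR quasi-likelihood test, Benjamini-Hochberg adjusted p below 0.05 over 16010 genes). In all, 7 of the 10 log2 fold changes (LNP-Gsdme over LNP-GFP) were above 0, beside 49.3% of all tested genes. The median of the 10 was 0.16, beside -0.01 for all tested genes. In 4 genes, Cd274, Vsir, Pvr and Cd80, every LNP-Gsdme library lay above every LNP-GFP library, and in 0 genes below. Over all tested genes 19.6% were separated upwards, 18.2% downwards and 37.8% either way.

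**Figure D2:**
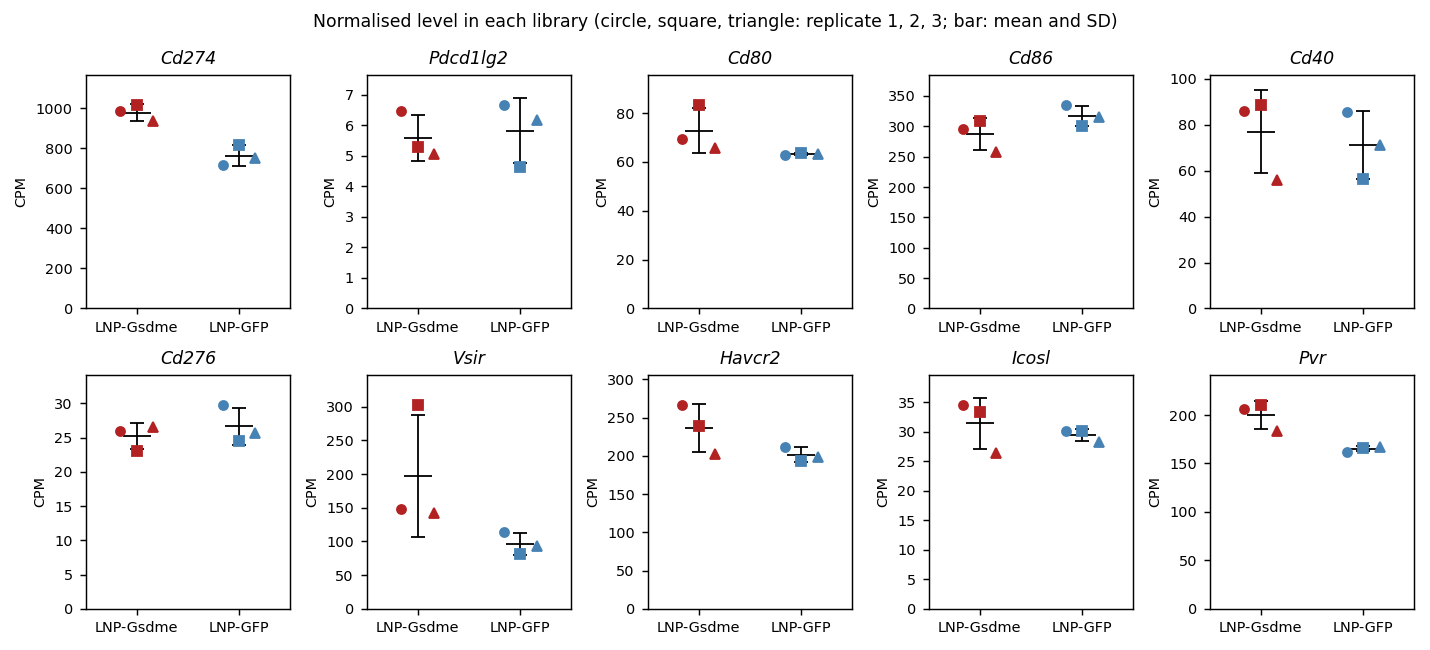
CPM of the 10 genes in each library, with LNP-Gsdme left of LNP-GFP; circle, square and triangle are replicates 1, 2 and 3, and bars the mean and SD of 3 libraries. Cd274 lay at 933 to 1015 CPM in LNP-Gsdme and at 714 to 817 CPM in LNP-GFP, and Vsir in LNP-Gsdme 2 stood apart at 302 CPM.

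Levels of different genes were compared as FPKM, which scales counts by gene length and library total. Cd274 was the highest of the 10 in every library. It averaged 272 ± 7.89 FPKM in LNP-Gsdme and 208 ± 11.8 FPKM in LNP-GFP (SD, n = 3 each), a level above that of 98.6% of tested genes. Its transcript made up 56.3, 54.5 and 59.1% of the summed FPKM of the 10 genes in LNP-Gsdme 1 to 3, and 50.2, 56.5 and 53.2% in LNP-GFP 1 to 3, with overlap. Cd86 followed at a mean of 64.6 FPKM over all 6 libraries, then Havcr2 at 44.0 FPKM, and the FPKM ranges of these 3 genes did not overlap. Pvr (25.2 FPKM), Vsir (21.3 FPKM), Cd80 (15.7 FPKM) and Cd40 (13.4 FPKM) came next, and the ranges of neighbours in this stretch overlapped, so the order of neighbours is not resolved, although Pvr lay above Cd80 and Cd40 with no overlap. Icosl (5.32 FPKM), Cd276 (3.98 FPKM) and Pdcd1lg2 (2.14 FPKM) were the lowest, each with a range apart from the next.

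**Figure D3:**
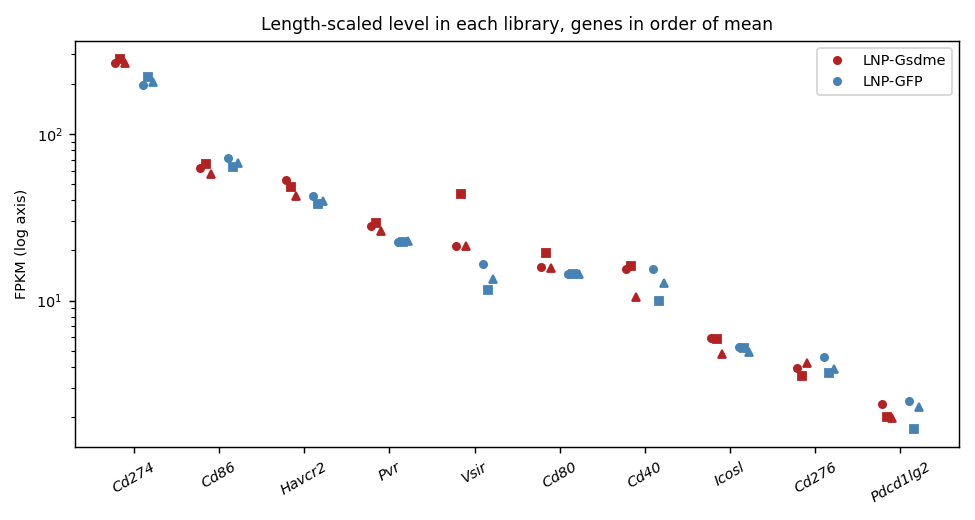
FPKM of the 10 genes in each library on a log axis, in order of the mean over 6 libraries; red points are LNP-Gsdme and blue points LNP-GFP, with the marker shape giving the replicate number. Mean levels run from 240 FPKM for Cd274 to 2.14 FPKM for Pdcd1lg2.

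The PD-1 ligands are neighbours on chromosome 19 and stood at opposite ends of this order. Cd274, which encodes PD-L1 (ENSMUSG00000016496, chr19:29344855-29365495, GRCm39), ends 22824 bases before Pdcd1lg2 starts, which encodes PD-L2 (ENSMUSG00000016498, chr19:29388319-29448561). Cd274 had 984, 1015 and 933 CPM in LNP-Gsdme 1 to 3, against 714, 817 and 753 CPM in LNP-GFP 1 to 3. All LNP-Gsdme libraries were higher than all LNP-GFP libraries. The log2 fold change was 0.36 ± 0.08 (SE, 3 libraries a group; adjusted p = 0.0374 by edgeR's quasi-likelihood test), with a 95% interval of 0.17 to 0.55. The call ended without LNP-Gsdme 1 (adjusted p = 0.126), LNP-Gsdme 2 (0.138) or LNP-GFP 3 (0.148), in edgeR, with log2 fold changes of 0.36, 0.34 and 0.36. Over the 14 alternatives the adjusted p ran from 0.00286 to 0.148. Markers of fibroblasts and mature dendritic cells were lower and did not overlap in the same libraries, and their part in the difference was not tested.

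Pdcd1lg2 showed no such difference. It had 6.46, 5.30 and 5.05 CPM in LNP-Gsdme 1 to 3, against 6.67, 4.63 and 6.19 CPM in LNP-GFP 1 to 3, from 85 to 153 counts per library. The groups overlapped. The span of Pdcd1lg2 is crossed by that of a noncoding gene, A930007I19Rik, with 102 to 183 counts per library, so some of its few reads could belong to either. The log2 fold change was -0.06 ± 0.19 (SE, 3 libraries a group; edgeR adjusted p = 0.857), and its 95% interval of -0.51 to 0.39 does not exclude a change as large as that of Cd274. Whether the neighbours differed in their response was therefore not shown. The FPKM of Cd274 was 112, 141 and 136 times that of Pdcd1lg2 in LNP-Gsdme 1 to 3, and 78.8, 130 and 89.5 times in LNP-GFP 1 to 3, and these ratios overlapped.

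The 250 bases before the start of both PD-1 ligand genes are shown because the neighbours differ so widely in level; they are RefSeq promoters of build GRCm38.p6, plus strand, at chr19:29367188-29367437 for Cd274 and chr19:29410669-29410918 for Pdcd1lg2. Capitals mark motif matches.
Cd274: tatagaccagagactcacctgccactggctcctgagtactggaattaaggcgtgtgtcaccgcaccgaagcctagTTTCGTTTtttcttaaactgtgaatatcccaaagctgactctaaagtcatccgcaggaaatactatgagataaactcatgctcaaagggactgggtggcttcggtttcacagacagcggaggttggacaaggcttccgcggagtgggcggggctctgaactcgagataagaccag
Pdcd1lg2: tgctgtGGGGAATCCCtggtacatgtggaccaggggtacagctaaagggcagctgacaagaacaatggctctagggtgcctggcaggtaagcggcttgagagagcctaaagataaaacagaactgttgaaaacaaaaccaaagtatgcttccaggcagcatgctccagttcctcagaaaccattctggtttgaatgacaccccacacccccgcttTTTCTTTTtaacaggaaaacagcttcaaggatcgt
In all, 5 motifs were searched on both strands: the interferon-stimulated response element (GAAA, any 2 bases, GAAA), the STAT motif TTCNNNGAA, the interferon regulatory factor (IRF) core AANNGAAA, the PU.1 motif GAGGAAGT and the NF-kB motif. Every match of the first contains the IRF core, which was added after the sequences had been read. Cd274 held an IRF core on the minus strand, 168 to 175 bases before the start. Pdcd1lg2 held an IRF core on the minus strand at 28 to 35 bases and an NF-kB motif at 235 to 244 bases before the start. Among 32851 promoter windows of this length, 21.3% held an IRF core, 7.25% an NF-kB motif, 2.98% the response element, 7.02% the STAT motif and 2.44% the PU.1 motif. Cd274 had 11 CpG pairs and 50.4% G and C in its window, and Pdcd1lg2 had 3 CpG pairs and 48.4%, against medians of 6 and 52.4% over all windows. Such matches describe letters only. A promoter was found for 7 of the 10 genes. Of the windows not shown, that of Icosl held an NF-kB motif on the minus strand, 102 to 111 bases before the start. The windows of Cd80, Cd276 and Vsir held no match to any of the 5 motifs.

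CD80 and CD86, the classical B7 ligands of CD28 and CTLA-4, both lie on mouse chromosome 16, and their genes did not pass the test. Cd86 (chr16:36424231-36486443) had 295, 309 and 258 CPM in LNP-Gsdme 1 to 3, against 335, 301 and 315 CPM in LNP-GFP 1 to 3. LNP-Gsdme 2 lay above LNP-GFP 2, so the groups overlapped. The log2 fold change was -0.14 ± 0.09 (SE, 3 libraries a group; edgeR adjusted p = 0.328; 95% interval -0.36 to 0.08). Cd80 (chr16:38275923-38316697) had 69.3, 83.3 and 65.7 CPM in LNP-Gsdme 1 to 3, against 62.8, 63.7 and 63.4 CPM in LNP-GFP 1 to 3. The LNP-GFP libraries were nearly equal and every LNP-Gsdme library lay above them, LNP-Gsdme 3 by the least. Its log2 fold change was 0.20 ± 0.10 (SE, 3 libraries a group; edgeR adjusted p = 0.224; 95% interval -0.04 to 0.44). The ratio of Cd86 to Cd80 in FPKM was 3.95, 3.44 and 3.64 in LNP-Gsdme 1 to 3, and 4.95, 4.38 and 4.61 in LNP-GFP 1 to 3. These ratios did not overlap, and no test was made of them. The FPKM of Cd274 was 4.29, 4.24 and 4.67 times that of Cd86 in LNP-Gsdme 1 to 3, and 2.75, 3.50 and 3.08 times in LNP-GFP 1 to 3, also without overlap or test. Against Cd80, the FPKM of Cd274 was 17.0, 14.6 and 17.0 times as high in LNP-Gsdme 1 to 3. In LNP-GFP 1 to 3 it was 13.6, 15.3 and 14.2 times as high, and these ratios overlapped.

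Icosl, the ligand of ICOS (chr10:77905136-77919747), had 34.5, 33.4 and 26.4 CPM in LNP-Gsdme 1 to 3, against 30.1, 30.1 and 28.2 CPM in LNP-GFP 1 to 3. LNP-Gsdme 3 was the lowest library and the groups overlapped (log2 fold change 0.09 ± 0.12 SE, 3 libraries a group; edgeR adjusted p = 0.617). Cd40, the receptor for CD40 ligand on activated T cells (chr2:164897547-164914868), had 86.1, 88.6 and 56.1 CPM in LNP-Gsdme 1 to 3, against 85.7, 56.4 and 71.4 CPM in LNP-GFP 1 to 3. It was low in 1 library of each group, LNP-Gsdme 3 and LNP-GFP 2, and varied by 23.5% of its mean in LNP-Gsdme and by 20.5% in LNP-GFP. Its log2 fold change was 0.11 ± 0.22 (SE, 3 libraries a group; edgeR adjusted p = 0.751; 95% interval -0.41 to 0.64). LNP-Gsdme 3 and LNP-GFP 2 were also the libraries with the most melanoma marker RNA (1051 and 2577 CPM) and the least T cell marker RNA (506 and 215 CPM) in their groups. Their part in the Cd40 level was not tested.

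Vsir had the largest fold change of the 10 and the widest spread. It encodes VISTA, an inhibitory B7 family molecule abundant on myeloid cells (ENSMUSG00000020101, chr10:60182630-60208463). It had 148, 302 and 142 CPM in LNP-Gsdme 1 to 3, against 114, 81.9 and 93.2 CPM in LNP-GFP 1 to 3. All LNP-Gsdme libraries were higher, and LNP-Gsdme 2 was 2.04 times the next library. The log2 fold change was 1.03 ± 0.31 (SE, 3 libraries a group; 95% interval 0.28 to 1.78) and did not pass (edgeR adjusted p = 0.0799, from 0.00671 to 0.217 over the alternatives). Without LNP-Gsdme 2 it was 0.59 (edgeR adjusted p = 0.118), and DESeq2 called it with all libraries (1.02, adjusted p = 0.00671). Vsir lies within the span of Cdh23 (chr10:60138527-60532269), which had 13 to 20 counts in LNP-Gsdme libraries and 21 to 29 in LNP-GFP libraries, beside 2627 to 4838 and 1789 to 2615 counts for Vsir.

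Pvr encodes CD155, which binds the activating receptor CD226 and the inhibitory receptors TIGIT and CD96 (chr7:19637503-19655085). It had 206, 210 and 184 CPM in LNP-Gsdme 1 to 3, against 162, 166 and 167 CPM in LNP-GFP 1 to 3. The groups did not overlap. Its log2 fold change of 0.28 ± 0.08 (SE, 3 libraries a group; 95% interval 0.09 to 0.46) just missed the threshold (edgeR adjusted p = 0.0634), and 3 of the 14 alternatives called it, with adjusted p from 0.0280 to 0.200. Pvr is also known from fibroblasts and tumour cells, whose part in the difference was not tested; the summed fibroblast markers were lower in LNP-Gsdme without overlap, and the melanoma sums overlapped.

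Havcr2 encodes TIM-3, an inhibitory receptor of T cells, NK cells and myeloid cells (chr11:46345762-46372082). It had 266, 239 and 203 CPM in LNP-Gsdme 1 to 3, against 212, 193 and 199 CPM in LNP-GFP 1 to 3. LNP-Gsdme 3 lay below LNP-GFP 1, so the groups overlapped (log2 fold change 0.23 ± 0.11 SE, 3 libraries a group; edgeR adjusted p = 0.210; 95% interval -0.04 to 0.49). In each group the library highest in Havcr2 was also the one highest in T and NK cell markers, and the part of those cells was not tested. The 250 bases before its start (RefSeq, GRCm38.p6, plus strand, chr11:46454681-46454930) are shown because they hold a match to the motif of PU.1, the myeloid lineage factor, in capitals, at 1 to 8 bases before the start.
Havcr2: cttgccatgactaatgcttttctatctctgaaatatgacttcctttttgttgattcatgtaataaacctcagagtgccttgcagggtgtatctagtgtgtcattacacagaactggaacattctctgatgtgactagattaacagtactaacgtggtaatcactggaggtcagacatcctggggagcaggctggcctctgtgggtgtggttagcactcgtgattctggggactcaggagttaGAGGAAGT
Cd276 encodes B7-H3, a B7 family molecule common on stromal and tumour cells (chr9:58431581-58462720). It had 25.9, 23.0 and 26.6 CPM in LNP-Gsdme 1 to 3, against 29.7, 24.5 and 25.7 CPM in LNP-GFP 1 to 3. The groups overlapped (log2 fold change -0.08 ± 0.11 SE, 3 libraries a group; edgeR adjusted p = 0.642; 95% interval -0.34 to 0.18).

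**Figure D4:**
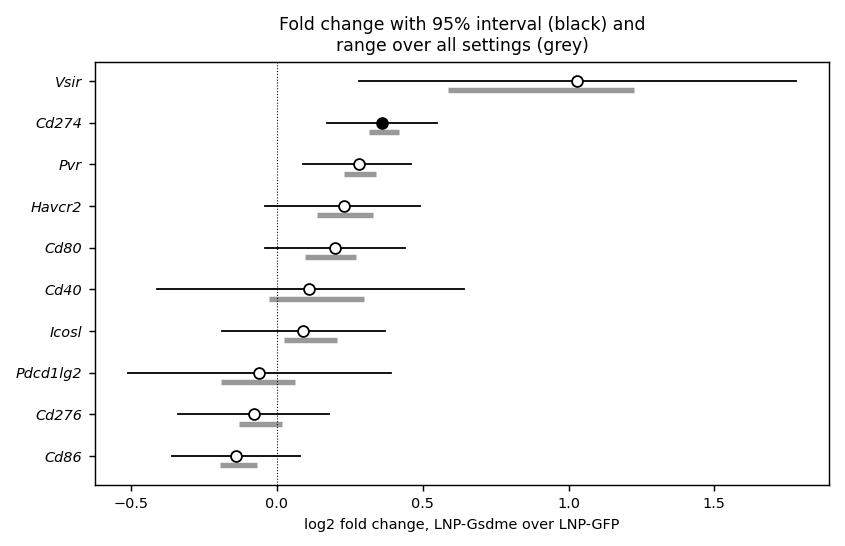
Log2 fold change of the 10 genes, LNP-Gsdme over LNP-GFP, with the 95% interval as a black line and the range over the main and 14 alternative settings as a grey bar; the filled point passed the test. Cd274 (0.36) passed, and the interval of Vsir (0.28 to 1.78) was the widest.

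Other genes of the same pathways were read from lists. For the counts called below, 6.3% of all tested genes rose and 5.32% fell by edgeR. Beside the counts at an unadjusted edgeR p below 0.05 stand 5051 of 16010 tested genes, both directions together. DESeq2 called 1475 genes as higher and 1522 as lower among 15192. Of 11 receptors and T cell partners of these ligands, 10 could be tested and 0 passed (edgeR; 1 of them, Cd28, at an unadjusted p below 0.05 and 0 by DESeq2). All 10 log2 fold changes were above 0, with a median of 0.50. Over all tested genes 49.3% were above 0, with a median of -0.01. Cd28, the receptor for CD80 and CD86, had 33.9, 36.1 and 31.7 CPM in LNP-Gsdme 1 to 3, against 31.0, 17.1 and 21.7 CPM in LNP-GFP 1 to 3 (log2 fold change 0.54, edgeR adjusted p = 0.139). Icos, the receptor for ICOS ligand, had 33.7, 41.9 and 32.9 CPM in LNP-Gsdme 1 to 3, against 34.5, 15.3 and 25.1 CPM in LNP-GFP 1 to 3 (log2 fold change 0.53, edgeR adjusted p = 0.244). Pdcd1, the gene for PD-1, had 79.3, 74.6 and 54.5 CPM in LNP-Gsdme 1 to 3, against 73.8, 28.0 and 49.5 CPM in LNP-GFP 1 to 3, with overlap. These receptors are typical of lymphocytes, whose summed markers were lowest in the same library, LNP-GFP 2. Cd40lg, the partner of CD40, had 0 or 1 count in LNP-Gsdme libraries and 0 to 2 counts in LNP-GFP libraries, too few to test.

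Among 20 further checkpoint ligands and relatives, 16 could be tested. By edgeR 1 rose and 1 fell, beside 6.3% and 5.32% of all tested genes. DESeq2 called 4 that rose (Lgals9, Selplg, Cd48 and Tnfrsf14) and 2 that fell (Cd200 and Nectin1), and edgeR without LNP-GFP 1 called 3 and 2. Lgals9, which encodes galectin-9, a TIM-3 ligand, rose to 402, 392 and 377 CPM in LNP-Gsdme 1 to 3, against 220, 192 and 206 CPM in LNP-GFP 1 to 3 (log2 fold change 0.93 ± 0.08 SE, 3 libraries a group; edgeR adjusted p = 0.00473). Timd4, a phosphatidylserine receptor of the TIM family, fell by 2.46 on the log2 scale (edgeR adjusted p = 0.0126). It rests on 3 to 5 counts in LNP-Gsdme libraries and 23 to 28 counts in LNP-GFP libraries. Its call was lost without LNP-Gsdme 1, LNP-Gsdme 2 or LNP-GFP 3, the stricter filter removed it and DESeq2 gave it no adjusted p, while Lgals9 passed in each of these settings. The median log2 fold change of the tested genes was -0.14.

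The 13 genes of CD40 signalling had a median log2 fold change of 0.05, with 0 risers (0 by DESeq2, 1 at an unadjusted p below 0.05) and 1 that fell. Of all tested genes, 6.3% rose and 5.32% fell by edgeR, and 5051 of 16010 had an unadjusted p below 0.05. Traf5, an adaptor of CD40, had 13.0, 13.3 and 13.2 CPM in LNP-Gsdme 1 to 3, against 17.8, 23.2 and 20.5 CPM in LNP-GFP 1 to 3 (log2 fold change -0.64 ± 0.12 SE, 3 libraries a group; edgeR adjusted p = 0.0254). Traf6, another CD40 adaptor, stood at -0.28 on the log2 scale and did not pass (edgeR adjusted p = 0.0810). DESeq2 called both as lower, as did edgeR without LNP-GFP 1, and without LNP-Gsdme 1, LNP-Gsdme 2 or LNP-GFP 3 neither passed.

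Of 15 genes known to act in the induction of PD-L1, 3 rose, 1 fell and 11 did not pass by edgeR (4 rose and 2 fell by DESeq2), with a median log2 fold change of 0.05. Over all tested genes, 6.3% rose and 5.32% fell by edgeR. Tyk2, a kinase of the type I interferon receptor, rose by 0.68 and Ifngr2, a chain of the interferon gamma receptor, by 0.49 on the log2 scale (edgeR adjusted p = 0.0477 and 0.0360). Nfkb1, which encodes an NF-kB subunit, fell by 0.56 (edgeR adjusted p = 0.0111). Irf1, known in human cells to activate the PD-L1 gene, had 360, 494 and 370 CPM in LNP-Gsdme 1 to 3, against 334, 226 and 258 CPM in LNP-GFP 1 to 3, and did not pass (log2 fold change 0.58, edgeR adjusted p = 0.0878). All 4 calls were lost when LNP-GFP 3, LNP-Gsdme 1 or LNP-Gsdme 2 was left out.

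Of 9 genes for the turnover of PD-L1, CD80 or CD86 proteins, 1 rose and 0 fell by edgeR (1 was lower at an unadjusted p below 0.05), and 2 rose and 1 fell by DESeq2. By edgeR, 6.3% of all tested genes rose and 5.32% fell, and 5051 of 16010 had an unadjusted p below 0.05. Marchf1, a ubiquitin ligase that removes CD86 and MHC class II from the cell surface, rose to 53.0, 53.0 and 46.3 CPM in LNP-Gsdme 1 to 3, against 25.5, 16.9 and 19.1 CPM in LNP-GFP 1 to 3. The groups did not overlap (log2 fold change 1.31 ± 0.16 SE, 3 libraries a group; edgeR adjusted p = 0.0100). It did not pass without LNP-GFP 3, LNP-Gsdme 1 or LNP-Gsdme 2. Cmtm6, which stabilises PD-L1 at the surface, stood at 0.07 on the log2 scale (edgeR adjusted p = 0.653), and the next lowest p was that of Spop, an adaptor for PD-L1 degradation (log2 fold change 0.36, edgeR adjusted p = 0.0750). RNA levels say nothing of the protein on the cell surface, which was not measured here.

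**Figure D5:**
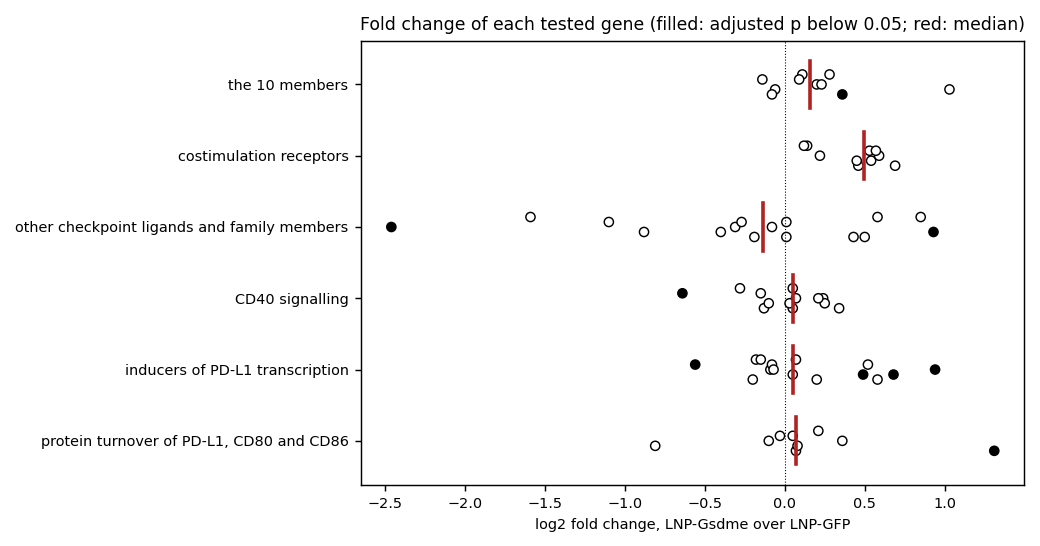
Log2 fold change, LNP-Gsdme over LNP-GFP, of each tested gene among the 10 checkpoint and costimulatory genes and 5 pathway lists; filled points passed the test and red lines are medians. Medians run from -0.14 for further checkpoint ligands to 0.50 for the receptors, and Marchf1 is the filled point at 1.31.

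Profiles over the 6 libraries were compared by the root mean square difference of log2 CPM, each gene centred on its own mean. The comparison covered 8347 protein-coding genes with a mean of at least 10 CPM. It left out the 10 genes, genes listed by identifier and those with names starting in Gm or ending in Rik. The genes most like Cd274 were Wipf1, Plscr1 and Ppp1r11, with differences of 0.015, 0.019 and 0.026, where the median gene differed by 0.241. Plscr1 encodes a phospholipid scramblase that interferon induces, and Wipf1 a regulator of the actin cytoskeleton. Wipf1, the closest, had 270, 274 and 251 CPM in LNP-Gsdme 1 to 3, against 198, 224 and 208 CPM in LNP-GFP 1 to 3. Plscr1 had 55.6, 57.8 and 52.8 CPM in LNP-Gsdme 1 to 3, against 39.4, 45.8 and 43.4 CPM in LNP-GFP 1 to 3. Ppp1r11 had 45.2, 45.2 and 40.8 CPM in LNP-Gsdme 1 to 3, against 32.4, 36.1 and 34.5 CPM in LNP-GFP 1 to 3. Cd80 was most like Med27, Arhgap39 and Bax (0.017, 0.035 and 0.038), and Cd86 most like Dnajb14, Txndc11 and Lias (0.025, 0.030 and 0.035). With 6 libraries such closeness is a description.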

How the data were processed

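RNA of monocytes sorted from B16F10 tumours was sequenced in 6 libraries, 3 LNP-Gsdme and 3 LNP-GFP. Total RNA was isolated on columns, cleared of DNA and sequenced from paired-end TruSeq libraries, per the labels' protocols. The authors deposited 1 table with raw counts per Ensembl gene, whole numbers that are not normalized, per the file headers. The deposited FPKM values are these counts scaled by gene length and library total; the length implied for a gene varied by no more than 0.00186% between libraries over 11356 genes. Positions are on GRCm39, as the submitters' processing notes list it. The sources used here name no aligner, counter, strand setting or annotation release, so reads of overlapping or antisense genes could be counted for either gene. Genes without a symbol (1542) held 0.112 to 0.150% of counts and stayed in under their identifiers.

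Counts were filtered with filterByExpr (edgeR 4.0.16, R 4.3.3), scaled with TMM factors (0.980 to 1.04) and tested by robust quasi-likelihood; p-values were adjusted over all 16010 genes. The standard error is the log2 fold change divided by the square root of its F statistic. CPM are over the tested genes' totals times the TMM factors. The method was tested on simulated data with planted changes larger than that of Cd274. The simulation therefore says nothing of changes as small as that of Cd274. The biological coefficient of variation was 0.193. Pdcd1lg2, the lowest of the 10 genes, had 85 to 153 counts per library, so counting error weighs most on it. Alternatives were DESeq2 1.42.0, limma-voom (limma 3.58.1), other scalings and filters, a fold threshold, the replicate number as a block and each library left out. The 10 genes, the lists and the tests were chosen with earlier results of these data known. The text names the 10 genes and the 2 genes with the smallest p of each pathway list, with any called ones. It also names the 3 genes most alike to Cd274, Cd80 and Cd86. Pdcd1, Cd40lg, Irf1, A930007I19Rik, Cmtm6, Cdh23 and Ly6c2 were added after their values had been seen. The values of 1 list gene are not reported here. Markers and other names matched the table's own symbols.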

Additional observations from a re-analysis of the deposited data

How the results depend on the processing

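Cd274 kept a log2 fold change of 0.31 to 0.42 over the 14 alternatives and passed in 10 of them. The fold threshold of 1.5 uses the main fit and is not among these 14, and Cd274 did not reach it. The count of the 10 genes that rose, 1, was 3 with DESeq2 (Cd274, Vsir and Pvr), 2 with library sizes only (Cd274 and Pvr), 0 with the replicate block, 0 at a fold of at least 1.5 and 0 to 2 with a library left out; the count that fell was 0 throughout. Over all genes, 1008 rose and 851 fell; DESeq2 gave 1475 and 1522, the replicate block 103 and 52, a fold of at least 1.5 gave 593 and 473, and leaving out a library gave 64 to 1625 and 24 to 1216. The lowest counts, 64 and 24, came without LNP-GFP 3; 107 and 46 passed without LNP-Gsdme 1, 119 and 68 without LNP-Gsdme 2, and 594 and 353 without LNP-GFP 2. Without LNP-GFP 1, 1625 rose. Fewer libraries or residual degrees of freedom enter the block and the left-out fits; other causes were not tested. Same-numbered libraries did not deviate together (correlations of -0.303 to 0.236 over 9207 genes), so the block pairs only numbers. Directions turned when a library was left out for Pdcd1lg2 (log2 fold changes of -0.193 to 0.062; above 0 without LNP-Gsdme 3 or LNP-GFP 1), Cd276 (-0.131 to 0.018; above 0 without LNP-GFP 1) and Cd40 (-0.026 to 0.298; below 0 without LNP-GFP 2), none of which passed in any setting. Depth limits Pdcd1lg2 most, with 85 to 153 counts per library.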

Other observations

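The level of Vsir in LNP-Gsdme 2 was shared by few genes. Among 9207 genes with a mean of at least 10 CPM, 5 stood at least 2-fold above every other library in LNP-Gsdme 2, namely Derpc, ENSMUSG00000121445, Fam107b, Zfp516 and Vsir. In the other libraries 2 to 9 genes did so. Fam107b had 48.3, 209 and 67.4 CPM in LNP-Gsdme 1 to 3, against 80.3, 38.2 and 48.4 CPM in LNP-GFP 1 to 3. Zfp516 had 92.2, 222 and 52.4 CPM in LNP-Gsdme 1 to 3, against 47.7, 65.8 and 92.9 CPM in LNP-GFP 1 to 3. Unlike Vsir, both overlapped between the groups. These genes and the 2-fold limit were chosen after the values had been seen.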
